A study of Mus musculus with 8 samples.

Results

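The genes described here form the transport machinery between the endoplasmic reticulum (ER) and the Golgi: the COPII and COPI coats, the Arf GTPases that act on COPI, the p24 proteins, the cargo receptors, the KDEL receptors, the SNAREs of this route and its tethers. The 52 genes were chosen by name for these roles, and all 52 were found among the 16538 genes of the table. Their RNA was measured in sorted DN3 thymocytes, the double negative (CD4-CD8-) stage marked as CD44-CD25+ at which a T cell precursor is first tested for a rearranged TCRβ chain. Control (Ctrl) mice were Sel1l flox/flox without Cre, titled WT in the labels, and Sel1l CKO mice were Sel1l flox/flox with hCD2cre, so both genotypes carried the floxed alleles. All mice were C57BL/6 and 6 weeks old, and each genotype had 4 libraries, replicates 1 to 4. The hCD2cre transgene expresses Cre from regulatory sequences of human CD2, which are active in lymphoid cells and not in DN3 cells alone. SEL1L is the adaptor of the ubiquitin ligase HRD1, which removes misfolded proteins from the ER, and the comparison asks what its loss does to DN3 thymocytes. The methods describe replicates as independent biological ones, while how many mice went into a library is not given in the sources used here.

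Newly made secretory and membrane proteins leave the ER in vesicles coated with COPII. The GTPase SAR1, loaded by PREB (SEC12) at exit sites organised by SEC16A, recruits the inner coat of SEC23 and SEC24, and SEC24 binds the cargo, while SEC13 and SEC31A form the outer cage. COPI vesicles, assembled by ARF1 after its activation by GBF1, return escaped ER residents and recycled receptors, among them proteins with a KDEL tail that are caught by the KDEL receptors. Many genes of this route are known targets of the unfolded protein response, whose factors XBP1 and ATF6 bind ER stress elements in promoters.

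Averaged over the 8 libraries, 45 members reached an RPKM of 1 and were tested. Of these 45, 28 were higher in Sel1l CKO DN3 thymocytes and 0 were lower at an adjusted p under 0.05 (limma on log2(RPKM + 0.1), Benjamini-Hochberg over all 6512 genes tested). Over all genes tested, 4.27% were called higher and 1.01% lower. The log2 fold changes of the 28 members ran from 0.28 to 1.25, with a median of 0.59. Over all 45, the median was 0.41, against 0.01 over all genes tested, and 40 of the 45 had a positive value. In 31 of the 45 the Sel1l CKO libraries were all higher than the control libraries without overlap, which 9.15% of all genes tested showed. None of the 45 had a control mean under 1, so no member entered the test through the Sel1l CKO libraries alone. The 0 lower calls held in the voom fit and in the fit without a filter, and at an unadjusted p under 0.05 only 1 member, Tmed5, was lower. In RNA from sorted bulk cells, fewer cells of a type and less RNA per cell cannot be told apart.

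**Figure D1:**
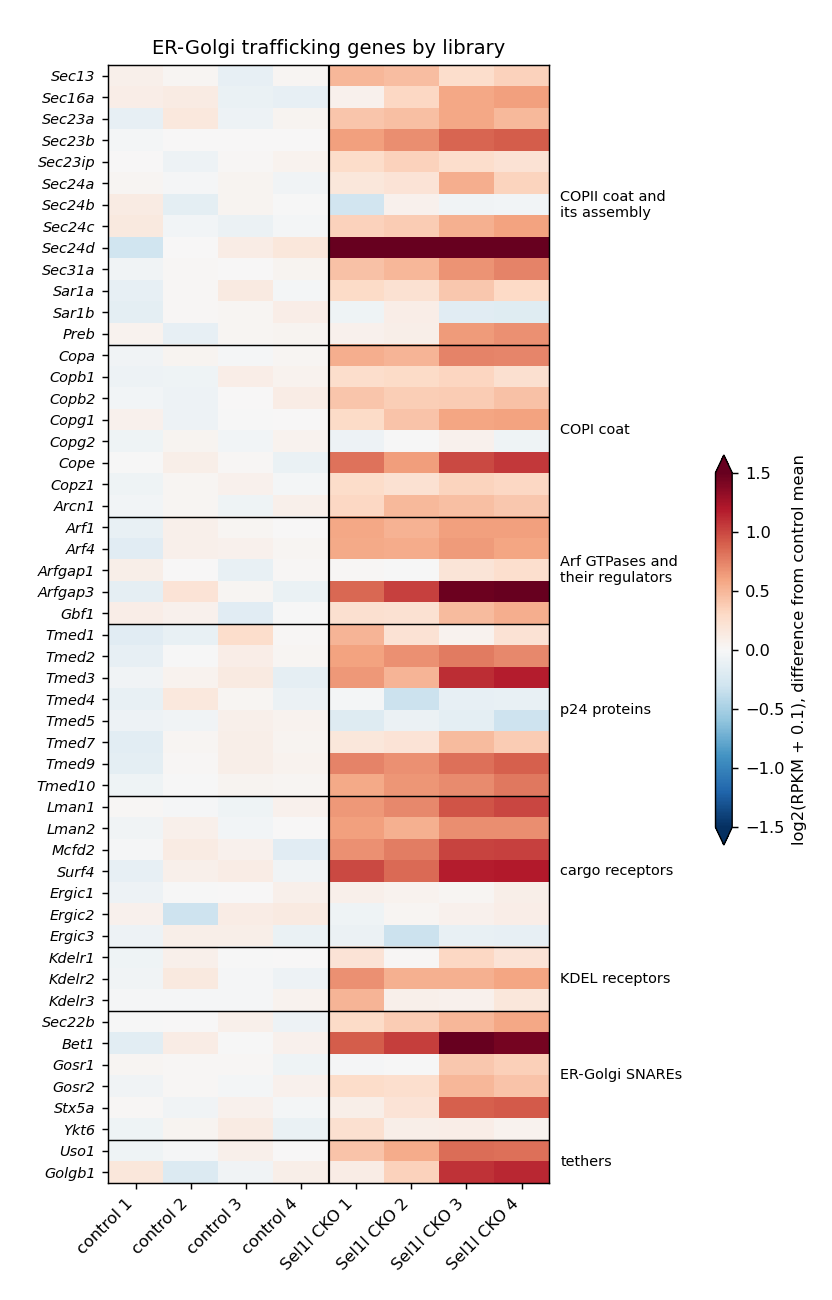
Each row is one of the 52 members and each column a library; the colour gives log2(RPKM + 0.1) minus the mean of the 4 control libraries (blue under 0, red over 0), and horizontal lines part the subgroups. Red fills the Sel1l CKO columns of most rows, COPI coat genes among them, while rows such as Sec24b, Sar1b, Copg2, Tmed4, Tmed5 and Ergic1 to Ergic3 stay pale.

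The targeted gene and the cell type markers were read first. Sel1l measured 1.83, 1.66, 1.61 and 1.57 RPKM in control (values are always in the order of replicates 1 to 4) against 0.917, 0.876, 1.32 and 1.23 in Sel1l CKO, 65.1% of the control mean (log2 fold change -0.59 ± 0.13 SE, limma adjusted p = 0.0327), and the groups did not overlap. That call was lost in 6 of the 8 fits with 1 library left out (adjusted p 0.0646 to 0.0981), all but those without Sel1l CKO replicate 3 or 4, and with the sums of RPKM made equal (0.0649). The table has 1 value per gene, so the floxed part of Sel1l could not be read on its own. The 10 DN3 marker genes were all expressed, with a summed RPKM of 363 to 403 in control and 300 to 340 in Sel1l CKO, and 0 of them were called by limma (4 had an unadjusted p under 0.05). Plasma cells are rich in this secretory machinery, and their 6 markers summed to 8.39 to 12.6 RPKM in control and 10.2 to 29.5 in Sel1l CKO, with 0 called. The defining genes Prdm1 and Tnfrsf17 were at or near 0 in all 8 libraries (at most 0.0388 RPKM). The sum was carried by Mzb1, which averaged 10.5 ± 1.8 RPKM in control and 20.1 ± 8.0 in Sel1l CKO (SD, n = 4) and was not called (limma adjusted p = 0.136), although it passed without Sel1l CKO replicate 2 (adjusted p = 0.00595). Summed markers of B cells and dendritic cells stayed at or under 0.252 and 0.0411 RPKM. NK cell markers summed to 26.3 to 33.4 RPKM in control and 18.9 to 26.4 in Sel1l CKO, nearly all of it Gzma (limma adjusted p = 0.0531). Myeloid markers summed to 3.5 to 6.19 RPKM in control and 1.93 to 3.97 in Sel1l CKO, and erythroid markers to 0 to 1.12 and 0.465 to 2.66. Over the 11 marker lists, limma called Epcam alone, listed as a thymic epithelial marker, which was lower (log2 fold change -0.95, adjusted p = 0.00273). Epcam averaged 4.02 RPKM in control and 2.01 in Sel1l CKO. Krt5, Krt8, Foxn1 and Psmb11 of the same list were at most 0.128 RPKM in any library. On recovered reads, limma voom also called the gamma delta T cell marker Blk (-1.13, adjusted p = 0.02) and the myeloid marker Lyz2 (-0.98, adjusted p = 0.0451) lower. Sox13, on the same gamma delta list as Blk, had a positive value and did not pass (voom 0.22, adjusted p = 0.287). Without Sel1l CKO replicate 2, Lyz2 and Gzma passed in limma as well (adjusted p = 0.00343 and 0.015), and Ptcra, a DN3 marker, was lower without Sel1l CKO replicate 1 (0.0128). The part of these markers in the results was not tested. The RPKM steps imply library totals of 32900253 to 50401359 reads, rounded to whole reads, and whether these are counted reads or a scaled library size is not given in the sources used here.

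The COPII coat genes rose in part. Of 10 tested members of the coat and its assembly, 6 were called higher, with a median log2 fold change of 0.38 over the 10. With the sums of RPKM made equal between libraries, 2 of these 6 calls were left, Sec23b and Sec31a, and Sec13, Sec24c, Sar1a and Sec23ip were lost (adjusted p = 0.0535, 0.0535, 0.0514 and 0.0892). Both cage genes rose. Sec13, a cage subunit, was at 10.7, 10.3, 9.26 and 10.3 RPKM in control and at 14.3, 14, 12.2 and 12.9 in Sel1l CKO (log2 fold change 0.40 ± 0.07, adjusted p = 0.0145). Sec31a, its partner, went from 3.61, 3.79, 3.76 and 3.85 RPKM to 5.13, 5.36, 6.05 and 6.37 (0.59 ± 0.08, adjusted p = 0.00206). In neither did the genotypes overlap.

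The inner coat genes differed among paralogs. Sec23b, the higher of both Sec23 genes per exon length, was very even in control at 2.46, 2.52, 2.52 and 2.52 RPKM and reached 3.89, 4.12, 4.67 and 4.78 in Sel1l CKO (0.77 ± 0.08, adjusted p = 3.6e-04). Sec24c, the most abundant of the 4 Sec24 cargo adaptors per exon length, was at 13.8, 12.1, 11.7 and 12.2 RPKM in control and at 15.8, 16.2, 18 and 18.9 in Sel1l CKO (0.46 ± 0.08, adjusted p = 0.0107). In both, the genotypes stood fully apart. Sec24b overlapped between the genotypes, with 2.24, 1.83, 2.10 and 2.03 RPKM in control and 1.66, 2.14, 1.96 and 1.99 in Sel1l CKO (-0.08 ± 0.09, adjusted p = 0.649).

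Sar1a, the higher per exon length of both genes for the coat GTPase, was at 8.89, 9.80, 10.7 and 9.49 RPKM in control and at 11.9, 11.4, 12.9 and 12 in Sel1l CKO (0.31 ± 0.07, adjusted p = 0.0428). Sar1b overlapped, at 0.984, 1.12, 1.13 and 1.19 RPKM in control and 1.05, 1.19, 0.974 and 0.965 in Sel1l CKO (-0.08 ± 0.09, adjusted p = 0.677). Sec23ip, whose product binds SEC23, was at 1.90, 1.79, 1.92 and 1.96 RPKM in control and 2.31, 2.43, 2.29 and 2.22 in Sel1l CKO (0.28 ± 0.06, adjusted p = 0.0377). These small rises were the least stable of the coat. Sec23ip lost its call whichever library was left out (adjusted p 0.0548 to 0.109), and Sar1a lost it in every such fit but that without control replicate 3 (0.0533 to 0.119). The upstream assembly factors were not called by limma. Sec16a had a log2 fold change of 0.39 (adjusted p = 0.121), although it passed without Sel1l CKO replicate 1 (0.50, adjusted p = 0.0309), and Preb one of 0.37 (adjusted p = 0.197). Preb stood at 17.4 and 17.7 RPKM in Sel1l CKO replicates 1 and 2 but at 25.9 and 26.7 in replicates 3 and 4, against 15.3 to 17.2 in control.

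Sec24d had the highest fold of the 51 members with enough reads, although its mean RPKM was under 1. RPKM in this table is computed on gene spans with introns, and Sec24d (ENSMUSG00000039234.11, GRCm38 chromosome 3, 123267455 to 123365641, transcribed from the plus strand) spans 98187 bases with 6325 bases of exon, so a low RPKM goes with many reads. It was at 0.163, 0.223, 0.249 and 0.264 RPKM in control and at 1.0, 1.19, 1.71 and 1.88 in Sel1l CKO, which stood for 652 to 1045 reads per control library and 3731 to 6064 per Sel1l CKO library. On the reads recovered from the RPKM values, the log2 fold change was 2.68 ± 0.23 (limma voom, adjusted p = 4.5e-05 over 11348 genes), and it stayed past the threshold without any 1 library (highest adjusted p = 5.2e-04). SEC24D is one of the cargo adaptors, and its mean RPKM in Sel1l CKO was 6.43 times that of control.

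Of the other 6 members under that mean, all but Kdelr3 were tested in the same voom fit, in which 3.08% of all genes were called higher. In that fit 51 members were tested, 32 were higher and 0 lower, and the 32 held all 28 called on RPKM. The added 4 were Sec24d, Sec23a, Arfgap3 and Gbf1. Sec23a was at 0.489, 0.618, 0.511 and 0.558 RPKM in control and 0.758, 0.775, 0.863 and 0.798 in Sel1l CKO (voom log2 fold change 0.56 ± 0.09, adjusted p = 0.00639). Sec24a was at 0.342, 0.328, 0.345 and 0.319 RPKM in control and 0.386, 0.399, 0.532 and 0.445 in Sel1l CKO. Its groups did not overlap (exact permutation p = 0.0286, two-sided, the smallest that 70 assignments of 4 against 4 libraries allow), but it did not pass in the voom fit (0.39 ± 0.11, adjusted p = 0.0741). Sec24a and Sar1b are neighbours on chromosome 11, with 52 bases between their spans and opposite directions of transcription.

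Promoter sequences were searched for stress element letters because so many members moved together. RefSeq promoters (GRCm38.p6, 250 bases before to 50 after a start) were at hand for 46 of the 52 members and for 27025 genes in all. The members with no entry were Arcn1, Tmed2, Tmed7, Lman1, Kdelr2 and Golgb1. The ER stress element ERSE (CCAAT, any 9 bases, CCACG) was in 0 of the 46 members and 0.137% of all genes, and ERSE-II (ATTGG, any 1 base, CCACG) in 0 and 0.0444%. The UPRE letters TGACGTGG, searched on both strands, were in 8 of the 46 members (17.4%) and in 0.714% of all genes. They were found in 3 of the 24 members called on RPKM and in 5 of the other 22, of which Sec23a, Sec24d and Gbf1 were called by voom. The cAMP-response-like letters TGACGTCA were in Cope and Gosr2 (4.35% of members) and in 2.03% of all genes. A match describes letters in a window and is not a binding site, and no test was made. The share over all genes covers every gene with a promoter entry, expressed in DN3 thymocytes or not, and was not matched to the members.

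The matches of the 8 genes are given as windows of 30 bases, 5′ to 3′ on the strand that reads the motif, with TGACGTGG in capitals, because members of several roles share it.
Sec24d: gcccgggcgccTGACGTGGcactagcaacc
Sec23a: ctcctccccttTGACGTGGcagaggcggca
Copb1: aagtccttggcTGACGTGGaagggggcggg
Copb2: ggccaacccacTGACGTGGaacttccggga
Arf1: gcggcaggcgcTGACGTGGctgccgtcagc
Gbf1: tgtcagctcacTGACGTGGtaactagcctc
Kdelr3: tggccgcgcggTGACGTGGcggggcggcca
Stx5a: tcctaactcggTGACGTGGctgctgcgcca
The windows lie at chr3:123267459-123267488 (plus strand) for Sec24d, chr12:59011993-59012022 (minus) for Sec23a, chr7:114254690-114254719 (plus) for Copb1 and chr9:98563713-98563742 (minus) for Copb2. Those of Arf1, Gbf1, Kdelr3 and Stx5a lie at chr11:59228228-59228257, chr19:46152535-46152564, chr15:79516367-79516396 and chr19:8741422-8741451, all minus. The span of Sec24d used for the RPKM begins at 123267455, ahead of its window, so starts differ between annotations. Counted on the gene's own strand, the motif began 26 bases before the RefSeq start in Sec24d, 28 in Copb1, 30 in Kdelr3, 12 in Gbf1 and 7 in Copb2. In Sec23a, Stx5a and Arf1 it began at base 7, 10 and 22 after a start, and Stx5a held a second match, from base 40. The match in Arf1 lies 84 bases before another RefSeq start of the gene. Of these 8 genes, 6 were called higher by voom, beside 32 of the 51 members tested in that fit. Stx5a did not pass there (adjusted p = 0.114), and Kdelr3 had too few reads.

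The COPI coat was the one subgroup in which every member tested on RPKM was called higher, 7 of 7. Their log2 fold changes were 0.28 to 0.87. Copg2, the COPI gene below the RPKM minimum, did not rise (voom -0.01, adjusted p = 0.946). With the sums of RPKM made equal, 5 of the 7 were called, without Copb1 (adjusted p = 0.0584) and Copz1 (0.0649). Cope, for the epsilon subunit, led. It was at 13.3, 14.2, 13.5 and 12.4 RPKM in control and at 23.5, 20.6, 26.6 and 27.9 in Sel1l CKO (0.87 ± 0.10, adjusted p = 7.3e-04). Copa (alpha) went from 8.79, 9.36, 8.97 and 9.26 RPKM to 13.3, 13, 15.3 and 15.2 (0.63 ± 0.07, adjusted p = 8.9e-04). Copg1 (gamma) went from 7.30, 6.58, 6.94 and 7.01 RPKM to 8.52, 9.38, 10.5 and 10.6 (0.48 ± 0.08, adjusted p = 0.00970). None of the 3 genes overlapped between genotypes, and the gain of Cope was the widest.

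Subunits with smaller rises were also separated in all libraries. Arcn1 (delta) was at 7.90, 8.29, 7.73 and 8.56 RPKM in control and 10.1, 11.4, 11.1 and 10.8 in Sel1l CKO (0.41 ± 0.06, adjusted p = 0.00526). Copb2 (beta prime) was at 5.92, 5.81, 6.12 and 6.60 RPKM in control and 8.17, 7.94, 7.95 and 8.29 in Sel1l CKO (0.40 ± 0.06, adjusted p = 0.00526). Copz1 (zeta) went from 5.86, 6.29, 6.46 and 6.03 RPKM to 7.48, 7.23, 7.81 and 7.66 (0.29 ± 0.06, adjusted p = 0.0236). The last of these lost its call in 6 of the 8 fits with 1 library left out (adjusted p 0.0502 to 0.0846, all but those without control replicate 3 or Sel1l CKO replicate 2). Copb1 (beta) was at 2.77, 2.80, 3.15 and 3.04 RPKM in control and 3.55, 3.59, 3.71 and 3.48 in Sel1l CKO (0.28 ± 0.07, adjusted p = 0.0424), and kept its call only without control replicate 3 (0.0633 to 0.124 in the other 7 fits). Copg2, the second gamma subunit, lay below the RPKM minimum and overlapped between the genotypes at 0.372, 0.409, 0.380 and 0.412 RPKM in control and 0.368, 0.392, 0.415 and 0.371 in Sel1l CKO. On 1995 to 2917 reads per control library its voom log2 fold change was -0.01 ± 0.08 (adjusted p = 0.946). Copg2 overlaps Mest on the opposite strand.

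**Figure D2:**
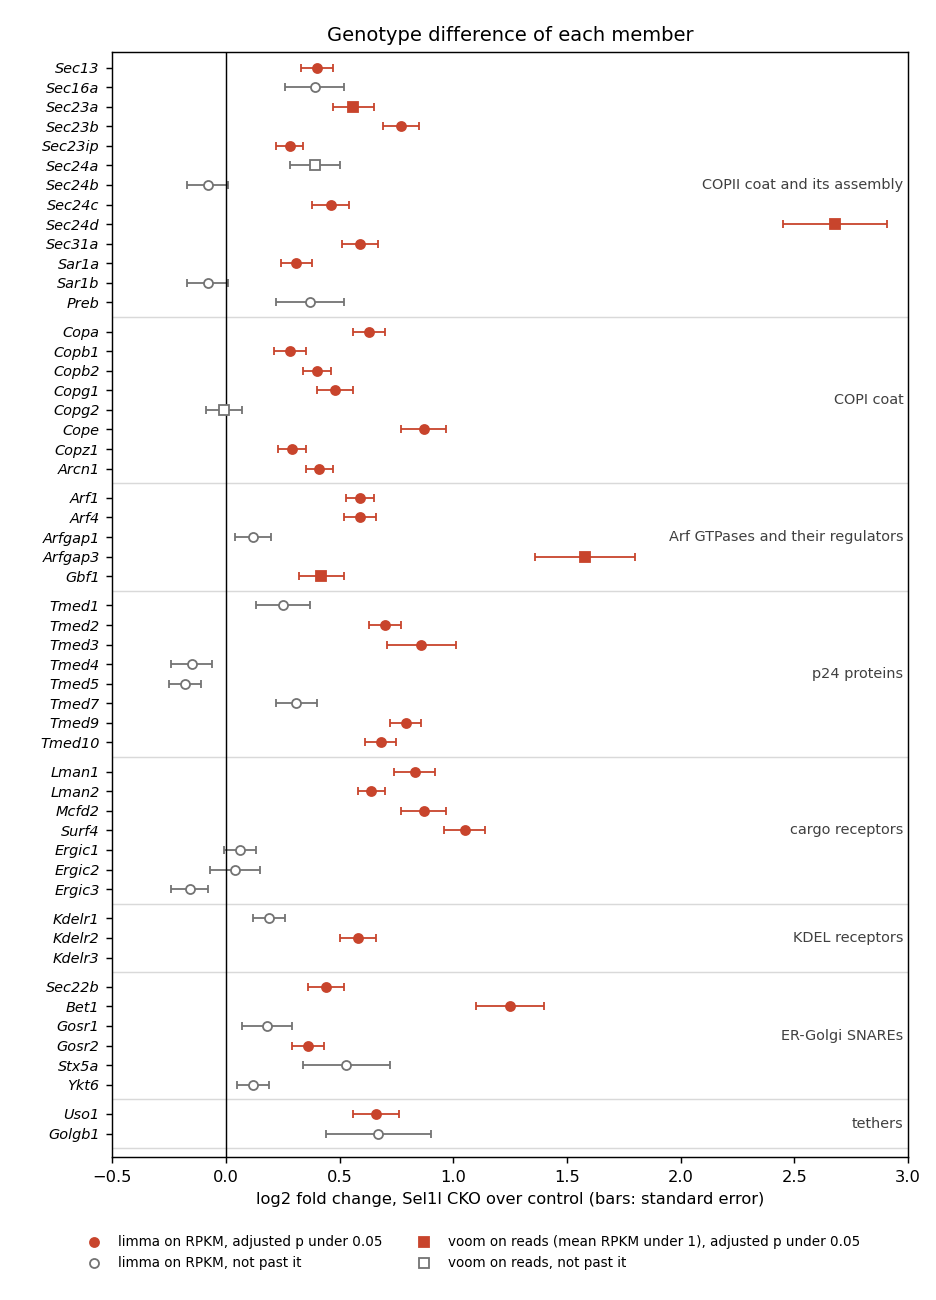
Log2 fold change of Sel1l CKO over control with its standard error for each member, grouped by role; circles are limma on RPKM, squares voom on recovered reads for members under a mean RPKM of 1, and red marks an adjusted p under 0.05. Sec24d (2.68) and Arfgap3 (1.58) lie farthest right, and all COPI genes tested on RPKM are red circles. Kdelr3 has no point because it had 0 to 19 reads per library.

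Both Arf GTPases among the members rose, each with a log2 fold change of 0.59. Arf2, Arf3, Arf5 and Arf6, which are not members, were not called by limma (0.26, -0.04, 0.03 and 0.12). Arf1, the GTPase that recruits COPI, was at 18.6, 21.1, 20.4 and 20.1 RPKM in control and 30.1, 28.8, 30.7 and 30.8 in Sel1l CKO (0.59 ± 0.06, adjusted p = 4.3e-04). Arf4 was at 4.58, 5.45, 5.44 and 5.29 RPKM in control and 7.74, 7.65, 8.11 and 7.84 in Sel1l CKO (0.59 ± 0.07, adjusted p = 0.00114). Per exon length, Arf1 was the highest of all 52 members, with 162 ± 8.27 RPKM in control and 243 ± 7.28 in Sel1l CKO (SD, n = 4). The GTPase-activating proteins parted. Arfgap1 overlapped, with 4.73, 4.45, 4.10 and 4.51 RPKM in control and 4.51, 4.43, 5.10 and 5.31 in Sel1l CKO (0.12 ± 0.08, adjusted p = 0.436). Arfgap3 was at 0.167, 0.238, 0.200 and 0.175 RPKM in control and 0.435, 0.499, 0.715 and 0.763 in Sel1l CKO, 3.09 times the control mean (voom 1.58 ± 0.22, adjusted p = 0.00160). Gbf1, the exchange factor that loads ARF1, was at 0.924, 0.895, 0.750 and 0.853 RPKM in control and 1.03, 1.02, 1.22 and 1.29 in Sel1l CKO (voom 0.42 ± 0.10, adjusted p = 0.0357). Its call was lost in 6 of 8 fits with 1 library left out (adjusted p up to 0.103), all but those without Sel1l CKO replicate 1 or 2.

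Of the 8 p24 genes, 4 rose. The p24 proteins are small membrane proteins that cycle between ER and Golgi and help to sort GPI-anchored cargo. Those called higher were Tmed2, Tmed3, Tmed9 and Tmed10. Tmed9 was at 28.4, 31.9, 33.5 and 32.6 RPKM in control and 53.1, 50.7, 56.2 and 58.7 in Sel1l CKO (0.79 ± 0.07, adjusted p = 2.6e-04). Tmed2 was at 12.8, 13.9, 14.9 and 14.2 RPKM in control and 21.3, 22.4, 23.9 and 23.1 in Sel1l CKO (0.70 ± 0.07, adjusted p = 3.0e-04). Tmed10 was at 4.10, 4.29, 4.43 and 4.38 RPKM in control and 6.42, 6.88, 7.11 and 7.49 in Sel1l CKO (0.68 ± 0.07, adjusted p = 2.9e-04). These 3 varied little within a genotype and moved by nearly equal amounts. Tmed3 was more spread, from 5.23, 5.60, 5.95 and 4.93 RPKM in control to 8.52, 7.78, 11.8 and 12.4 in Sel1l CKO (0.86 ± 0.15, adjusted p = 0.0103).

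The other p24 genes did not pass. Tmed7 was at 1.88, 2.15, 2.24 and 2.16 RPKM in control and 2.37, 2.45, 2.95 and 2.77 in Sel1l CKO (0.31 ± 0.09, adjusted p = 0.0944), and it shares its strand and part of its span with Ticam2. Tmed4 was at 9.05, 10.9, 9.97 and 9.18 RPKM in control and 9.57, 7.75, 8.94 and 8.98 in Sel1l CKO (-0.15 ± 0.09, adjusted p = 0.371). Tmed5 was the one member of the 52 with every Sel1l CKO library under every control library, which 364 of all 6512 genes tested showed. Tmed5 was at 3.24, 3.28, 3.60 and 3.53 RPKM in control and 2.97, 3.20, 3.08 and 2.74 in Sel1l CKO (-0.18 ± 0.07, adjusted p = 0.187). Tmed1 had a log2 fold change of 0.25 (adjusted p = 0.286).

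The cargo receptors fell into a group that rose and a group that did not. Surf4, a receptor for soluble secreted cargo, was called with the largest change of this subgroup. It was at 15.2, 17.5, 17.9 and 16 RPKM in control and 33.1, 29.9, 37.6 and 37.9 in Sel1l CKO, 2.08 times the control mean (1.05 ± 0.09, adjusted p = 2.0e-04). Mcfd2, the cofactor of LMAN1, was at 4.09, 4.49, 4.34 and 3.65 RPKM in control and 6.69, 7.11, 8.46 and 8.49 in Sel1l CKO (0.87 ± 0.10, adjusted p = 8.4e-04). Lman1 (ERGIC-53), a mannose-binding receptor, was at 1.7, 1.65, 1.59 and 1.75 RPKM in control and 2.67, 2.81, 3.32 and 3.45 in Sel1l CKO (0.83 ± 0.09, adjusted p = 6.8e-04). Both parts of the LMAN1-MCFD2 receptor thus rose, by amounts within each other's standard errors. Lman2 (VIP36), a related lectin, went from 13.4, 14.7, 13.5 and 14 RPKM to 21.3, 20.2, 22.5 and 22.6 (0.64 ± 0.06, adjusted p = 3.6e-04). The 3 ERGIC genes overlapped between genotypes, with log2 fold changes of 0.06 for Ergic1, 0.04 for Ergic2 and -0.16 for Ergic3, and were not called. Surf4 overlaps Surf2 on the opposite strand, and whether the reads were counted by strand is not given in the sources used here.

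Of the KDEL receptors, Kdelr2 rose. It was at 1.72, 2.0, 1.77 and 1.69 RPKM in control and 2.94, 2.63, 2.63 and 2.75 in Sel1l CKO (0.58 ± 0.08, adjusted p = 0.00167). Kdelr1 was at 6.22, 6.86, 6.49 and 6.52 RPKM in control and 7.56, 6.59, 8.11 and 7.51 in Sel1l CKO (0.19 ± 0.07, adjusted p = 0.201). The third receptor had few reads. Kdelr3 had 0, 0, 0 and 2 reads in control and 19, 4, 2 and 5 in Sel1l CKO, too few for a fold, and it overlaps Ddx17 on the opposite strand.

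Among the SNAREs that fuse these vesicles, Bet1 rose the most, and more than any other member tested on RPKM. Bet1 (ENSMUSG00000032757.6) lies on the minus strand of GRCm38 chromosome 6, from 4076899 to 4086972. It was at 1.73, 2.10, 1.93 and 2.03 RPKM in control and 3.74, 4.09, 6.21 and 5.42 in Sel1l CKO, 2.5 times the control mean (1.25 ± 0.15, adjusted p = 0.00121). Sec22b was at 2.89, 2.93, 3.06 and 2.76 RPKM in control and 3.56, 3.83, 4.15 and 4.39 in Sel1l CKO (0.44 ± 0.08, adjusted p = 0.0112). Gosr2 (membrin) was at 6.43, 6.77, 6.50 and 6.96 RPKM in control and 8.09, 7.92, 9.47 and 8.98 in Sel1l CKO (0.36 ± 0.07, adjusted p = 0.0216). These 3 did not overlap between genotypes, but Gosr2 lost its call in 5 of 8 fits with 1 library left out (adjusted p 0.0549 to 0.0755), namely without control replicate 1, 2 or 3 or Sel1l CKO replicate 3 or 4, and with the sums of RPKM made equal (0.0746). Stx5a, the syntaxin that pairs with these SNAREs, was not called (0.53 ± 0.19, adjusted p = 0.152), nor were Gosr1 (0.18) and Ykt6 (0.12).

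Of the tethers, Uso1 (p115), which tethers COPII vesicles, was at 1.25, 1.29, 1.39 and 1.31 RPKM in control and 1.79, 1.98, 2.42 and 2.39 in Sel1l CKO (0.66 ± 0.10, adjusted p = 0.00581). Golgb1 (giantin), a golgin on COPI vesicles, had a log2 fold change of the same size but a wide spread. It was at 1.47, 1.11, 1.25 and 1.39 RPKM in control and at 1.41, 1.68, 2.87 and 2.97 in Sel1l CKO (0.67 ± 0.23, adjusted p = 0.136), and of the fits with 1 library left out it passed in that without Sel1l CKO replicate 1 (0.86, adjusted p = 0.0495). With all 8 libraries it passed with array weights (0.97, adjusted p = 0.00394) and with a term for replicates 1 and 2 against 3 and 4 (0.67, adjusted p = 0.0487).

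Related members were then set against each other as ratios within each library, where the scaling between libraries cancels. In 11 of 14 pairs the log2 ratios of the genotypes did not overlap (exact permutation p = 0.0286 each, two-sided, 0.0364 adjusted over the 14 pairs). One of the 11, Kdelr3 to Kdelr2, is set by the pseudocount, since it changed from -0.38 to 0.52 with a pseudocount of 0.01, and is not counted as a result. Pairs of other genes were not compared, so the share that would separate among them is not known. Several pairs set a gene called higher against one not called, and their ratios partly restate those calls. Sec24d gained on Sec24c by 1.76 ± 0.21 on the log2 scale (SE). Arfgap3 gained on Arfgap1 by 1.11 ± 0.15. Tmed9 gained on Tmed4 by 0.94 ± 0.08, and Tmed3 on Tmed7 by 0.55 ± 0.12. Kdelr2 gained on Kdelr1 by 0.40 ± 0.07. In each of these the gaining gene was one called higher.

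Other genes lost ground to a relative. Copg2 lost against Copg1 (-0.49 ± 0.09), Sar1b against Sar1a (-0.39 ± 0.11) and Tmed5 against Tmed1 (-0.43 ± 0.13). The ratio of Tmed5 to Tmed1 was separated only narrowly, at -0.09 after rounding in both control replicate 3 and Sel1l CKO replicate 3. That of Sar1b to Sar1a was also separated narrowly, at -3.14 in control replicate 3 and -3.15 in Sel1l CKO replicate 2. So was that of Sec24a to Sec24b, at -2.17 in control replicate 2 and -2.16 in Sel1l CKO replicate 2. Neither Tmed5 nor Tmed1 was called. Sec23a lost against Sec23b (-0.29 ± 0.07), although both genes rose. Sec24a gained on Sec24b by 0.39 ± 0.11, a difference that shrank to 0.17 and no longer passed with a pseudocount of 1. The other 3 pairs overlapped between genotypes. Arf4 to Arf1 differed by 0.00 ± 0.03 (exact permutation p = 0.914), the narrowest error of all pairs, Lman1 to Lman2 by 0.19 ± 0.07 (exact p = 0.0857) and Ergic3 to Ergic2 by -0.20 ± 0.16 (exact p = 0.286).

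**Figure D3:**
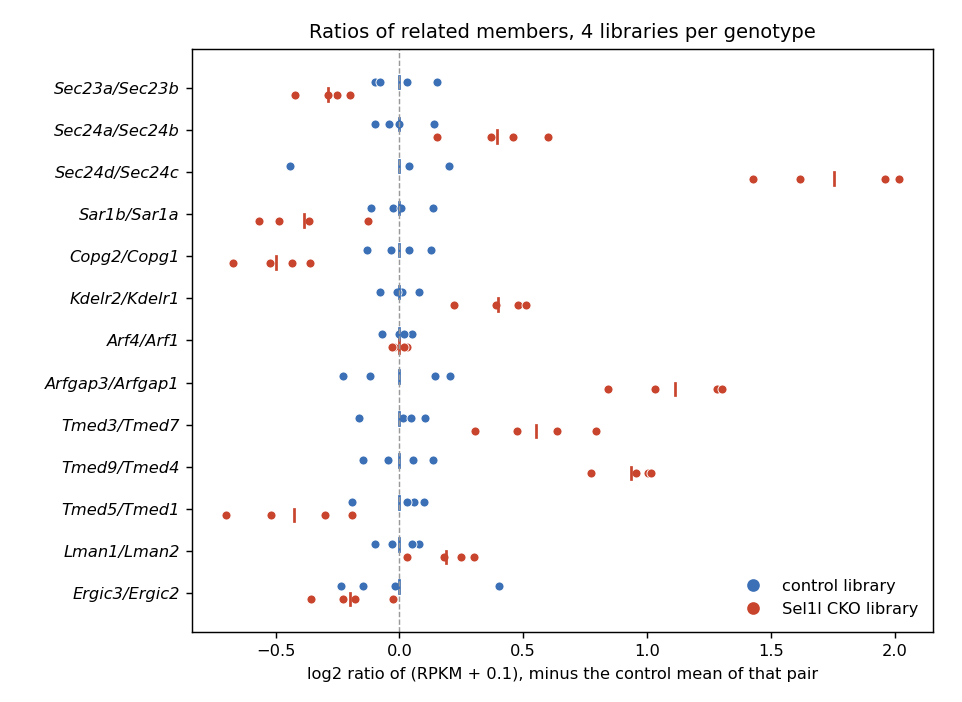
For 13 pairs of related members, each point is the log2 ratio of (RPKM + 0.1) in 1 library minus the control mean of that pair, and bars mark the genotype means; Kdelr3 to Kdelr2 is left out because the pseudocount sets it. Sec24d to Sec24c moved by 1.76, Copg2 to Copg1 by -0.49, and the points of Arf4 to Arf1 lie on each other.

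To compare levels between genes, RPKM was also computed on exon length. On this scale the Sec24 genes summed to 73.2 ± 4.35 RPKM in control and 107 ± 12.7 in Sel1l CKO (SD, n = 4). Sec24d made up 3.20, 5.01, 5.37 and 5.64% of that sum in control and 17, 18.1, 23.2 and 24.3% in Sel1l CKO. It thus went from the third of the 4 paralogs, close to Sec24a, to about the level of Sec24b. The share of Sec24b went from 36.7 ± 1.43% to 23.8 ± 2.56% at a nearly level exon-length RPKM (26.9 ± 2.24 and 25.3 ± 2.62), while Sec24c kept 55.5 ± 1.82% and 52.7 ± 2.49%. Smaller shifts were seen in the other families. Copg2 held 41.3 ± 2.09% of the gamma-COP sum in control and 33.1 ± 2.03% in Sel1l CKO, Sar1b 42.4 ± 1.82% and 35.9 ± 3.28% of the Sar1 sum, and Kdelr2 31.7 ± 1.05% and 38.3 ± 2.11% of the KDEL receptor sum. The p24 genes summed to 179 ± 10.3 RPKM in control and 269 ± 15.4 in Sel1l CKO. Tmed4 went from 11.3 ± 0.844% to 6.79 ± 0.631% of that sum and Tmed5 from 6.52 ± 0.251% to 3.83 ± 0.414%, with no overlap between libraries. Their own exon-length RPKM went from 20.2 ± 1.79 to 18.2 ± 1.57 and from 11.7 ± 0.607 to 10.2 ± 0.662, and neither gene was called. A share also falls as its sum rises, and the called Tmed2, Tmed3, Tmed9 and Tmed10 are part of this sum.

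**Figure D4:**
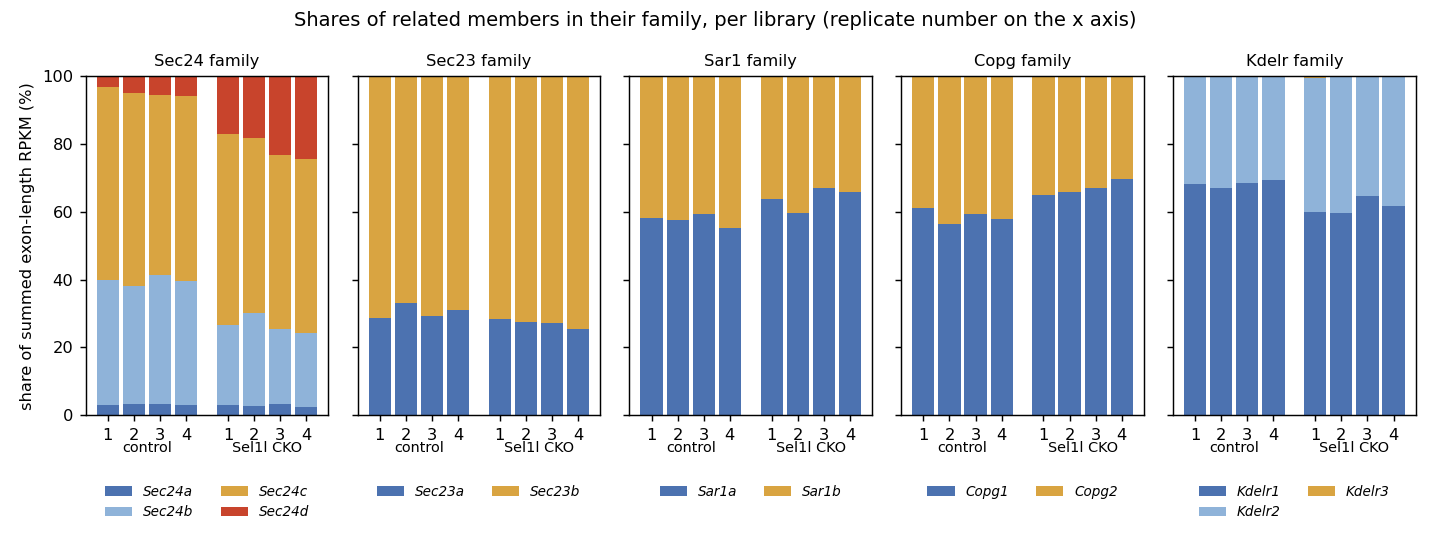
Stacked bars give the share (%) of each gene in the summed exon-length RPKM of its family, 1 bar per library with its replicate number. The Sec24d segment grows from 3.20 to 5.64% in the control bars to 17 to 24.3% in the Sel1l CKO bars, and the Sec24b segment narrows.

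The rises were present in both sets of replicates and tended to be larger in replicates 3 and 4. Neither the labels nor the methods name a batch, but several members were split between these sets, so the genotypes were also compared within each. For the 45 members the median log2 fold change came to 0.35 in replicates 1 and 2 and to 0.56 in replicates 3 and 4, and 36 of the 45 were positive in both. The change was larger in replicates 3 and 4 for 32 of the 45 members, against 48.1% of all genes tested. The 7 tested COPI genes had medians of 0.41 and 0.42, the 8 p24 genes 0.54 and 0.53, while the 10 COPII genes had 0.31 and 0.49. In a model with genotype and set, 0 of the 45 members differed between sets at an adjusted p under 0.05 (0.276% of all genes did), and 13 of 45 did at an unadjusted p under 0.05, against 19.7% of all genes.

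The 4 members with the lowest p of this difference, Stx5a, Preb, Sec16a and Golgb1, were not called by limma on unweighted libraries. With array weights, which give less weight to libraries that vary more, Stx5a, Preb and Sec16a passed (adjusted p = 0.00253, 0.00624 and 0.00610), as Golgb1 did and also Tmed7, Kdelr1 and Gosr1 (0.00690, 0.0273 and 0.0304). With a term for the sets, Stx5a (0.0479) and Tmed7 (0.0329) passed too. Stx5a changed by 0.17 within replicates 1 and 2 and by 0.89 within replicates 3 and 4 (adjusted p of the difference 0.0619, limma). In its libraries, Stx5a was at 5.93 to 6.41 RPKM in control, at 6.52 and 7.11 in Sel1l CKO replicates 1 and 2, and at 11.5 and 11.7 in replicates 3 and 4. Golgb1 changed by 0.25 and 1.09, Sec16a by 0.08 and 0.70, Preb by 0.11 and 0.63, and Gosr1 by -0.04 and 0.41. Tmed3 (0.58 and 1.14) and Bet1 (1.0 and 1.5) were split by about as much and were called. Tmed1 went the other way, with 0.51 within replicates 1 and 2 and -0.01 within replicates 3 and 4. The targeted gene Sel1l changed by -0.89 within replicates 1 and 2 and by -0.30 within replicates 3 and 4 (adjusted p of the difference 0.108, limma). What distinguishes the sets was not tested.

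**Figure D5:**
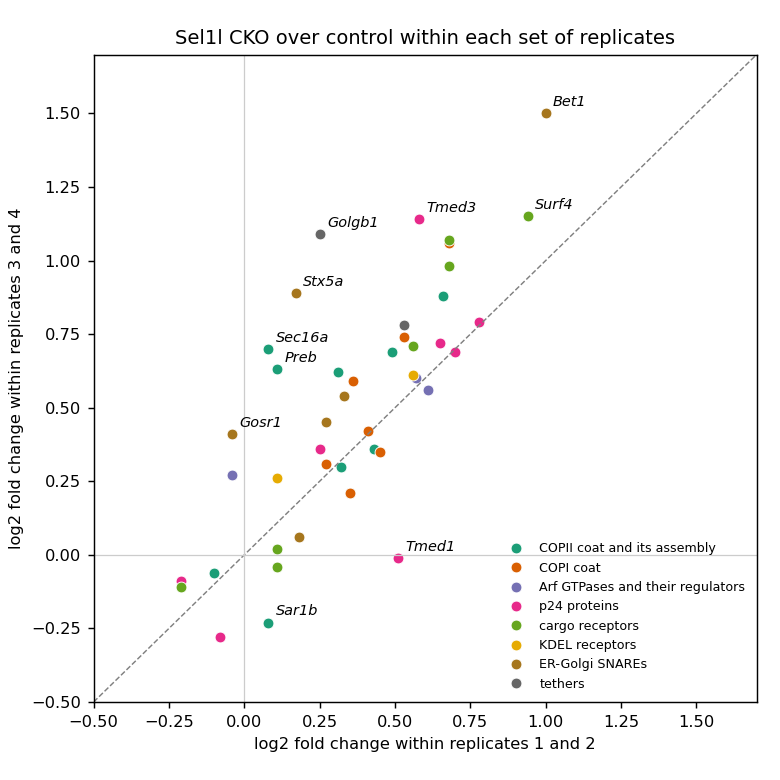
Each point is 1 of the 45 tested members, with its log2 fold change within replicates 1 and 2 on the x axis and within replicates 3 and 4 on the y axis; the dashed line marks equal change and colours give the subgroup. Bet1 and Surf4 are high on both axes, Golgb1, Stx5a, Sec16a and Preb lie far above the line, and Tmed1 lies below it.

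Other genes of the ER-Golgi route were then read. Of 71 other genes of this route (TRAPP, COG and NRZ tethers, further exit site, cargo receptor, Rab, golgin, coat and Arf genes), 50 were tested, 4 were called higher and 0 lower, with a median log2 fold change of 0.06, beside the 4.27% called higher and the median of 0.01 over all genes tested. In the TRAPP complex 0 of 11 were called, in the COG complex 0 of 5, and among further coat and Arf genes 0 of 11 (limma, with 1, 0 and 2 genes at an unadjusted p under 0.05). The 4 called genes were Gorasp2, Tfg, Rab1a and Gorasp1. Gorasp2 (GRASP55), a Golgi stacking protein, was at 2.19, 2.21, 2.39 and 2.43 RPKM in control and 3.82, 4.31, 4.61 and 4.71 in Sel1l CKO (0.89 ± 0.08, adjusted p = 2.2e-04). Tfg, which organises ER exit sites, was at 2.67, 2.67, 2.63 and 2.77 RPKM in control and 3.63, 4.10, 3.90 and 3.86 in Sel1l CKO (0.51 ± 0.06, adjusted p = 0.00106). Both were separated by genotype and kept their calls without any 1 library. Rab1a, a Rab GTPase of this route, changed by 0.38 (adjusted p = 0.0185) and was lost without control replicate 4 (0.0573) or Sel1l CKO replicate 3 (0.053). Its paralog Rab1b was not called (0.09, limma adjusted p = 0.487), nor was Rab2a (0.23, adjusted p = 0.164). Gorasp1 changed by 0.44 (adjusted p = 0.0466) and kept its call only without control replicate 3 (0.0639 to 0.131 in the other fits), and it did not pass in voom (0.0565). On recovered reads, Nbas (0.79), Scfd1 (0.78), Cog7 (0.58) and Stx18 (0.49), all under the RPKM minimum, were called higher as well (voom adjusted p = 0.00162, 0.00764, 0.0280 and 0.0180). Gorasp2, Tfg and Rab1a passed in voom too (adjusted p = 5.2e-05, 7.6e-04 and 0.0145). That fit called 3.08% of all genes higher, and it also tested genes of the route that the RPKM minimum kept out of limma. Nbas, Scfd1 and Stx18 are of the NRZ list, in which limma tested 3 of 8 genes and called 0.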

How the data were processed

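DN3 thymocytes were sorted into TRIzol LS, and stranded mRNA libraries were sequenced in paired ends. Per the labels and the methods, the authors aligned reads to GRCm38 with STAR 2.5.2b, counted reads per protein-coding gene (HTSeq 2.7) and deposited the RPKM of each library in 1 table. The gene length was not given in the sources used here. Of 15449 genes with a value, 75% gave whole reads (within 0.01) on the gene span of the annotation and 2.7% on the exon length, so introns entered the length. Reads were recovered for 14974 genes, on the span or on a length solved from the steps, and held 94.74 to 98.03% of the total that the RPKM steps imply for each library. These reads were used as an alternative and for exon-length RPKM.

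RPKM is not a count, so log2(RPKM + 0.1) was fitted, for genes averaging 1 RPKM or more, with limma 3.58.1 (R 4.3.3) with a mean-variance trend on genotype, two-sided, with Benjamini-Hochberg adjustment over 6512 genes. Fold changes on this scale understate those of low genes. Recovered reads were tested with limma voom (mean of at least 10 reads, median-of-ratios library sizes). Single values and ratios had exact permutation tests. Fits were tested on simulated data. Every member could be named, with values per library for called members, their pairs and members under the minimum with the smallest exact p, and other genes of the route where called. Preb, Stx5a, Golgb1 and Mzb1 were given per library after their values were seen. Rab1b, Rab2a, Arf2, Arf3, Arf5 and Arf6, which were not called, were also named after their values were seen. The members, gene lists and motifs were chosen with earlier results of these data known. Alternatives covered pseudocount, filter, scaling, length, weights, replicate sets and each library left out. The voom fits with 1 library left out, the test of genotype by replicate set and the family shares were chosen after seeing the data. Proteins were not analysed here.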

Additional observations from a re-analysis of the deposited data

Results flagged for a closer look

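In 4 of 104 groups of 4 libraries (52 members in each genotype), 1 library lay farther from the other 3 than Dixon's 95% limit allows, where chance alone flags about 1 in 20 groups. For Sec23b, control replicate 1 was at 2.46 RPKM and the other 3 at 2.52. For Ergic2, control replicate 2 was at 1.12 RPKM against 1.49 to 1.56. For Gosr1, control replicate 4 was at 1.34 RPKM against 1.43 to 1.44. For Kdelr3, control replicate 4 was at 0.00468 RPKM, which stands for 2 reads, and the others were at 0. None of the 4 was in a Sel1l CKO library.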

How the results depend on the processing

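The number of members called higher was 28 and ranged from 19 (mean RPKM of at least 5, with fewer genes tested) to 35 (array weights) over the alternatives, and 0 were called lower in any of them. With the sums of RPKM made equal it was 21, with quantile normalization 27, with exon-length RPKM 31 and with a term for replicates 1 and 2 against 3 and 4 also 31. Leaving out 1 library gave 23 to 26. Over all genes, 344 were called, 640 with array weights and 525 with that term. The 66 genes called lower became 182 with either, 145 with voom, 121 on exon length, 102 with quantile normalization and 36 at a mean RPKM of at least 5, and 31 to 75 with 1 library left out. The median log2 fold change of members was 0.56 within replicates 3 and 4, and 0.40 to 0.49 with 1 library left out. Same-numbered libraries of the genotypes correlated in their deviations by 0.01 to 0.44, and replicates 1, 2 and 4 correlated better with another number, so the numbers were not read as pairs; with a replicate block 23 members were higher. The log2 fold change of Ergic2 was -0.07 without control replicate 2 (up to 0.08 with another library left out), and that of Copg2 in voom, -0.01 over all libraries, was 0.01 where leaving out 1 library changed its sign. The log2 ratio of Kdelr3 to Kdelr2 was 0.52 with a pseudocount of 0.01, and that of Lman1 to Lman2 -0.01 with a pseudocount of 1. The log2 ratio of Arf4 to Arf1, 0.00 in the main comparison, was -0.05 with a pseudocount of 1, -0.04 within replicates 3 and 4, and -0.02 to 0.02 with 1 library left out, below 0 (-0.02, -0.01 and -0.01) without control replicate 1, Sel1l CKO replicate 2 or Sel1l CKO replicate 3. The causes were not tested. With 4 libraries a group, single ratios cannot reach a p under 0.0286, and Kdelr3 is limited by its 0 to 19 reads.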
